A study of Rattus norvegicus with 2 samples.

Results

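Agrp, Npy, Pomc and Cartpt, the classical feeding peptide genes of the arcuate nucleus (ARC), were taken by name from the 32883 genes listed in both single-cell matrices, and each of the 4 was found on 1 row (ENSRNOG00000039001, ENSRNOG00000009768, ENSRNOG00000012686 and ENSRNOG00000017712). The hypothalamus, with the AVPV and the ARC in the piece taken, came from female Sprague Dawley rats at PND 29 (4 weeks of age), and 1 library of droplet-based 3′ single-cell RNA sequencing was made from each group. In SC300 a silicone implant had released estradiol benzoate (EB, 300 µg loaded) since PND 0.5. Control rats carried an oil capsule from PND 0.5 according to the methods of the study, whereas the sample labels name them intact. Each library pools 3 rats, so the files hold no measure of the spread between rats. No test between the groups was made, and every interval is an exact 95% interval that covers counting error only. A difference between the capsules and a difference between the rats or libraries cannot be told apart.

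The arcuate nucleus holds opposing sets of feeding neurons. Neurons that make agouti-related peptide (Agrp) and neuropeptide Y (Npy) promote feeding and also release GABA. Neurons that make pro-opiomelanocortin (Pomc), the precursor of the melanocortins and of beta-endorphin, restrain feeding through melanocortin receptors, which agouti-related peptide blocks. Cartpt encodes the CART peptides, which are made by Pomc neurons and by many other hypothalamic neurons.

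After cells with fewer than 200 genes were left out, 4296 Control and 4379 SC300 cells remained, with a median of 7986 and 8182 UMIs (unique molecular identifiers, a count of RNA molecules) per cell. Both libraries shared 9 cell barcodes. Neurons were cells with at least 4 of the 6 genes Snap25, Syt1, Stmn2, Snhg11, Celf4 and Rbfox3, which gave 380 Control neurons (8.85% of cells) and 361 SC300 neurons (8.24%), with a median of 28686 and 28871 UMIs. Of these, 318 and 301 lay in neuron-like clusters. Cells with 0 or 1 of the genes (3519 and 3569) served as background. A neuron was called high for a gene when it held at least 10 UMIs and at least 20 times the UMIs expected from that background.

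The promoter ends of the 4 genes are shown because Agrp and Npy were found in the same neurons, whereas Pomc and Cartpt shared few. Each line gives 150 bases before and 50 after the annotated start, on the strand of the gene, from RefSeq on the build GRCr8. All 4 genes matched an entry, and capitals mark a motif found by exact match.
Agrp, chr19:50359448-50359647, minus strand: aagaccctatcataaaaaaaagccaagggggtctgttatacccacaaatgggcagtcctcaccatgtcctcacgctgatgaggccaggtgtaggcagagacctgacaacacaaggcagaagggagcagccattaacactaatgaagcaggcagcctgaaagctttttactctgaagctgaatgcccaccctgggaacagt
Npy, chr4:80211961-80212160, plus strand: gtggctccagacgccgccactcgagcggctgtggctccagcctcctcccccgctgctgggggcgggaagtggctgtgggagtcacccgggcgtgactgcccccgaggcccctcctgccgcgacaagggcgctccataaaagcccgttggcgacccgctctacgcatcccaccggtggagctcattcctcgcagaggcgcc
Pomc, chr6:32659203-32659402, plus strand: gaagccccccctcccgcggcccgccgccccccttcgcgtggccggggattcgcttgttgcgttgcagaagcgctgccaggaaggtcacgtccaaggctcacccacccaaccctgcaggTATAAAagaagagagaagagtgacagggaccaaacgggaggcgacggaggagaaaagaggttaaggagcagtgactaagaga
Cartpt, chr2:32991186-32991385, minus strand: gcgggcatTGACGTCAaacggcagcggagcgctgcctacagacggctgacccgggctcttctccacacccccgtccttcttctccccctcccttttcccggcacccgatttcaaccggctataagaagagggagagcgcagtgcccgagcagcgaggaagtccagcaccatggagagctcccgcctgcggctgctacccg

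Each window of 300 bases was searched on both strands for TATAAA, for the cAMP response element TGACGTCA and its shorter part TGACG, and for TTCNNNGAA, the form of site read by STAT factors. Pomc held TATAAA, starting 32 bases before the start, a motif found in 14.2% of all 33469 promoters. Cartpt held TGACGTCA 142 bases before the start, which 1.83% of promoters hold, and TGACG, found in 21.2%, lies within it on both strands. Neither Agrp nor Npy held any of these letters, and TTCNNNGAA, present in 8.87% of promoters, was in none of the 4. The GC content of the window was 48.3% for Agrp and 67.7% for Npy, against a median of 51.7% over all promoters.

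Agrp was carried by a small set of neurons in both libraries. The Control library held 18 Agrp-high neurons (4.74%, 2.83 to 7.38%) with 39 to 974 Agrp UMIs and a median of 342. The SC300 library held 16 (4.43%, 2.55 to 7.10%) with 16 to 1885 UMIs and a median of 233. These cells held 99.0% and 99.1% of the Agrp UMIs of neurons, and the next neuron had 3 UMIs (Control) or 7 (SC300). The background of Agrp was 3.70 and 3.13 CPM (UMIs of the gene per 1e+06 UMIs of the cells summed).

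Npy was high in a set of like size, at a lower level. Npy-high neurons numbered 21 in Control (5.53%, 3.45 to 8.32%), with 12 to 119 UMIs and a median of 51. In SC300 they numbered 15 (4.16%, 2.34 to 6.76%), with 12 to 123 UMIs and a median of 50. The background of Npy was 4.99 and 3.92 CPM, and the neurons next below the limit held 9 and 8 UMIs.

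Pomc was high in few neurons. The 4 Pomc-high Control neurons (1.05%, 0.288 to 2.67%) held 23, 1115, 1171 and 1649 Pomc UMIs. The 8 SC300 neurons (2.22%, 0.961 to 4.32%) held 105, 178, 208, 389, 430, 515, 614 and 637. By plain UMIs, 3 of the Control cells thus stood above every SC300 cell. The remaining cell, which had 58.2% mitochondrial UMIs and 6452 UMIs in all, stood below them. This order takes no account of depth. The SC300 cell with 515 Pomc UMIs had 20192 UMIs in all, a larger share than 1115 of 62634 in a Control cell. Next below the limit were neurons with 11 and 13 UMIs. The background of Pomc was far higher than that of the other genes, at 80.0 CPM in Control and 25.01 CPM in SC300, so the limit was also higher in Control. This background takes in tanycyte-like cells, described below, a class that held 2130 and 340 Pomc UMIs. With background from microglia-like and mature oligodendrocyte-like cells, 5 Control and 9 SC300 neurons were Pomc-high.

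Cartpt was the most widely used of the 4 peptides. Control held 38 Cartpt-high neurons (10.0%, 7.17 to 13.5%) with 10 to 976 UMIs and a median of 69. SC300 held 58 (16.1%, 12.4 to 20.3%) with 10 to 3100 UMIs and a median of 58.5. The background was 5.31 and 3.52 CPM. Unlike Agrp, Cartpt showed no gap at the limit, since 10 Control and 15 SC300 neurons held 5 to 9 UMIs.

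**Figure D1:**
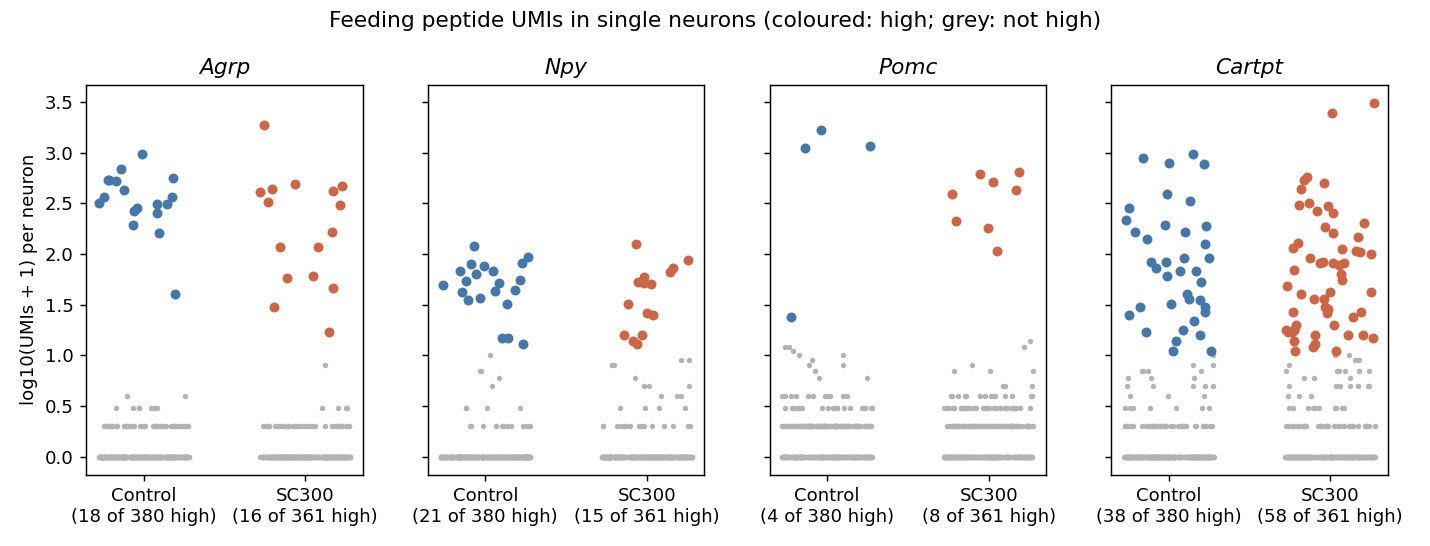
UMIs of Agrp, Npy, Pomc and Cartpt in each of 380 Control and 361 SC300 neurons, on a log10(UMIs + 1) axis, with high neurons coloured and all others grey. The 18 Control Agrp-high neurons stand apart from the rest, at 39 UMIs or more against 3 or fewer, whereas Cartpt shows no gap at the limit of 10 UMIs in either library.

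Detection of at least 1 UMI was much wider than the high sets. Pomc had a UMI in 39.7% of Control and 39.3% of SC300 neurons, against 14.1% and 12.8% of mature oligodendrocyte-like cells, which had a median of 19921 and 20854 UMIs and should lack the gene. After each cell was thinned to 2000 UMIs, which left out 1 SC300 neuron and 9 and 1 mature oligodendrocyte-like cells, the shares were 4.74% and 5.56% of neurons against 1.11% and 1.30%. Agrp had a UMI in 20% and 15.5% of neurons, and in 6.32% and 6.39% after thinning, against 5.15% and 5.64%, and 1.39% and 1.09%, of mature oligodendrocyte-like cells. Counts of cells that follow rest on the high calls, except where a count of cells with a UMI or another limit is named.

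Agrp and Npy were found together. Of the Agrp-high neurons, 17 of 18 in Control (94.4%, 72.7 to 99.9%) and 11 of 16 in SC300 (68.8%, 41.3 to 89.0%) were also Npy-high, against 4 of 362 (1.10%) and 4 of 345 (1.16%) of the other neurons. At least 1 Npy UMI was found in all 18 and 16 Agrp-high neurons, against 6.63% and 8.41% of the other neurons. The 5 SC300 cells that were not Npy-high held 1 to 8 Npy UMIs. Of these, 4 held 16 to 59 Agrp UMIs and 31.7 to 40.04% mitochondrial UMIs, and the remaining cell held 302 Agrp and 8 Npy UMIs at 8.73%. Among cells with at most 20% mitochondrial UMIs the share was 15 of 15 in Control and 9 of 10 in SC300. The part of the mitochondrial share in this was not tested.

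Npy was also high without Agrp. In each library 4 Npy-high neurons held no Agrp UMI. They held 12, 14, 14 and 67 Npy UMIs in Control and 13, 24, 25 and 86 in SC300. Across neurons, log-normalized Agrp and Npy had a Pearson's r of 0.91 in the 380 Control and 0.83 in the 361 SC300 cells. The cells behind each r share 1 library and pooled tissue.

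Pomc and Cartpt overlapped less tightly. In Control, 3 of 4 Pomc-high neurons were Cartpt-high (75.0%, 19.4 to 99.4%), with 26, 388 and 976 Cartpt UMIs, and the remaining cell held 1. In SC300, 2 of 8 were (25%, 3.19 to 65.1%), with 302 and 314 Cartpt UMIs, while the others held 0 to 9. The intervals overlap, and at 5 UMIs and 10 times background the SC300 share was 60%. In the other direction, 35 of 38 and 56 of 58 Cartpt-high neurons were not Pomc-high. The r of Pomc and Cartpt was 0.28 and 0.14.

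Overlap between the pairs of genes was then counted. No neuron of either library was high both for Agrp or Npy and for Pomc or Cartpt, among 61 Control and 84 SC300 neurons high for any of the genes. By a limit of 3 counts, 0 allows up to 0.789% of all Control and 0.831% of all SC300 neurons. Among the 18 and 16 Agrp-high neurons alone, the exact interval for being Pomc-high reached 18.5% and 20.6%. Of the neurons that were not Agrp-high, 1.1% and 2.32% were Pomc-high, and 10.5% and 16.8% were Cartpt-high. At so low a share of Pomc-high neurons, 0 joint cells with Agrp says little. The r of Agrp with Pomc was -0.02 and -0.01, and with Cartpt -0.09 and -0.08.

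**Figure D2:**
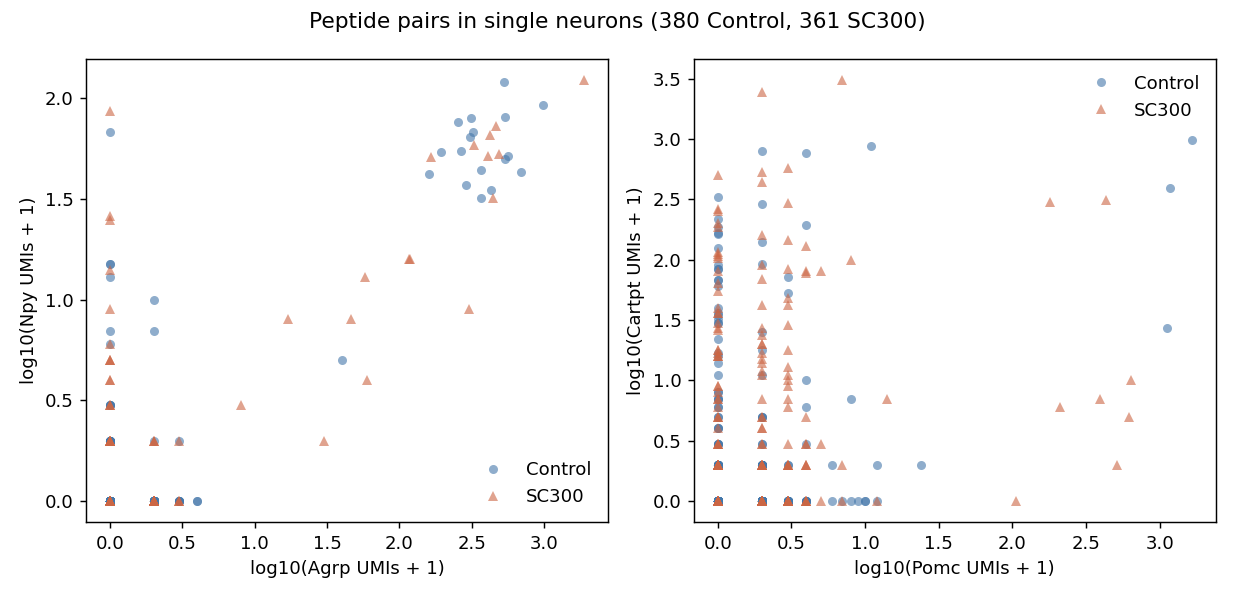
Agrp against Npy (left) and Pomc against Cartpt (right) in 380 Control (circles) and 361 SC300 (triangles) neurons, on log10(UMIs + 1) axes. Agrp-high neurons all hold Npy, whereas 35 of 38 Control and 56 of 58 SC300 Cartpt-high neurons are not Pomc-high.

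The genes whose log-normalized values were most like each member across neurons were taken by the lower r of both libraries, among 11800 genes. For Agrp these were Npy, AABR07040887.1, Ghr (the growth hormone receptor, r 0.51 and 0.59), Cited1 (0.52 and 0.48) and Gpc4 (0.47 and 0.56), and the list for Npy held the same genes with Agrp in place of Npy. For Pomc they were Shisal2b, Tbx3 (0.21 and 0.27), Npy1r (0.21 and 0.29), Tgfbi and Bag3. For Cartpt they were Rgs4 (0.32 and 0.33), Cox6a2, Tbx19, Glp1r and Galp.

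Agrp-high neurons were next compared with the 319 Control and 277 SC300 neurons that were high for none of the members. A listed gene was called when it was at least 2-fold apart in the same direction in both libraries, among genes whose pooled rate gave at least 5 UMIs in the group. Of all 6982 such genes, 0.902% were called higher and 5.89% lower. The neurons were grouped by Agrp itself, so these calls describe the cells and were not tested.

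Few listed receptors and transcription factors had enough UMIs to be compared in Agrp-high neurons. Of 3 hormone and amine receptors that passed the filter, Acvr1c, an activin receptor, was higher at 195 and 103 CPM (Control, SC300), against 8.92 and 10.8 in neurons with no member high. The pooled rate includes the UMIs of the group itself. A gene low elsewhere, such as Acvr1c, could thus pass partly by being high in the group. Prlr, the prolactin receptor, and Htr2c, a serotonin receptor, were lower. Of 5 transcription factors, Stat3, which carries leptin signals, was higher (110 and 176 CPM against 43.0 and 45.0), and Nkx2-1, Dlx1 and Dlx5 were lower. The calls of Stat3, Htr2c and Dlx1 were in the same direction in Pomc-high neurons. Lepr, the leptin receptor, did not pass this filter. With 23 and 21 UMIs it stood at 39.1 and 51.3 CPM, against 1.97 and 3.73. The 10 genes with the largest fold over all other neurons were Agrp, Npy, Acvr1c, Lepr, Filip1, Ghr, Cited1, AABR07040887.1, Gpc4 and Nppa. The ranking took genes that held at least 20 UMIs inside the Agrp-high cells, so a low gene such as Lepr could enter only by being high there.

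The transmitter genes were those of GABA neurons. Slc32a1, the vesicular GABA transporter, stood at 170 and 191 CPM, and Slc17a6, a vesicular glutamate transporter, at 0 and 2.44 CPM against 120 and 159, the only one of 4 transmitter genes called. Of 15 other peptides and markers, 11 were lower by summed CPM. Some of these are high in few neurons of any kind. Kiss1 was high in 1.93% and 2.90% of neurons not Agrp-high. In 0 of 18 and 0 of 16 Agrp-high cells its interval reached 18.5% and 20.6%, so its absence says little. Sst, also called lower, was high in 2 of 18 and 0 of 16 cells, against 13.8% and 17.7%. Calcr, the calcitonin receptor, was higher (223 and 298 CPM against 110 and 87.7). A Calcr UMI was found in all 18 and 16 cells, against 39.0% and 34.5% of the other neurons, but by the high call 3 of 18 and 6 of 16 were Calcr-high, against 13.5% and 10.1%. None of the 9 peptide processing genes and none of 4 melanocortin and NPY receptor genes was called. Pcsk1, a prohormone convertase, stood at 32.3 and 26.9 CPM, against 23.1 and 20.3.

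Pomc-high neurons had a different profile. Of 4468 genes, 0.470% were called higher and 3.67% lower, and with 4 and 8 cells these values rest on few molecules. Slc32a1 had no UMI in either library, where 3 UMIs would be 18.5 and 10.2 CPM. Slc17a6 stood at 246 and 143 CPM and was not called, since in SC300 it stood below neurons with no member high. Gad1, which makes GABA, was lower at 148 and 143 CPM, but Gad2 stood at 567 CPM in Control and 81.8 in SC300. Nkx2-1 and Stat3 were the higher and Dlx1 the lower of 4 transcription factors, and Htr2c was lower. By summed CPM, 8 of 13 other peptides and markers were lower, which need not mean fewer cells with the peptide. Gal, among the 8, was high in 1 of 4 and 1 of 8 cells, against 11.4% and 11.3% of neurons not Pomc-high. Nts was high in only 3.19% and 3.97% of those neurons, so its absence from 4 and 8 cells says little. None of 8 processing genes was called. Npy1r, a receptor for neuropeptide Y, did not pass the filter on low values. It stood at 271 and 116 CPM against 16.4 and 18.0 in all other neurons, next after Pomc in a ranking of genes with at least 20 UMIs in the Pomc-high cells, which a low gene enters only by being high there.

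Cartpt-high neurons without high Pomc (35 and 56) were a mixed set. In Control 35 and in SC300 48 of all Cartpt-high neurons were also high for another listed peptide or marker. The share of the other neurons high for any listed gene was not counted. Sst alone was high in 14.0% and 16.2% of them, so the count cannot be called particular to Cartpt. By at least 1 UMI, Slc32a1 without Slc17a6 was found in 11 Control and 30 SC300 Cartpt-high cells, and Slc17a6 without Slc32a1 in 23 and 23. These transmitter counts take no account of background. Of 9839 genes, 0.488% were called higher and 2.54% lower. Among the lists Ghrh, Oxt and Hcrt, and the receptor Glp1r, were higher, and Tac3 and Acvr1c were lower. The peptide calls rest on few cells. For Hcrt, 1 Cartpt-high cell held 1470 of 1470 UMIs in Control and 1 held 11247 of 11264 in SC300. For Ghrh, 2 Control cells held 467 and 320 of 794 UMIs, and 6 of 58 SC300 cells were high. Oxt, the gene of oxytocin, had the largest fold over all other neurons, but in Control 2 cells, with 37442 and 39513 UMIs, held nearly all of it and no other Control Cartpt-high neuron held more than 7.

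**Figure D3:**
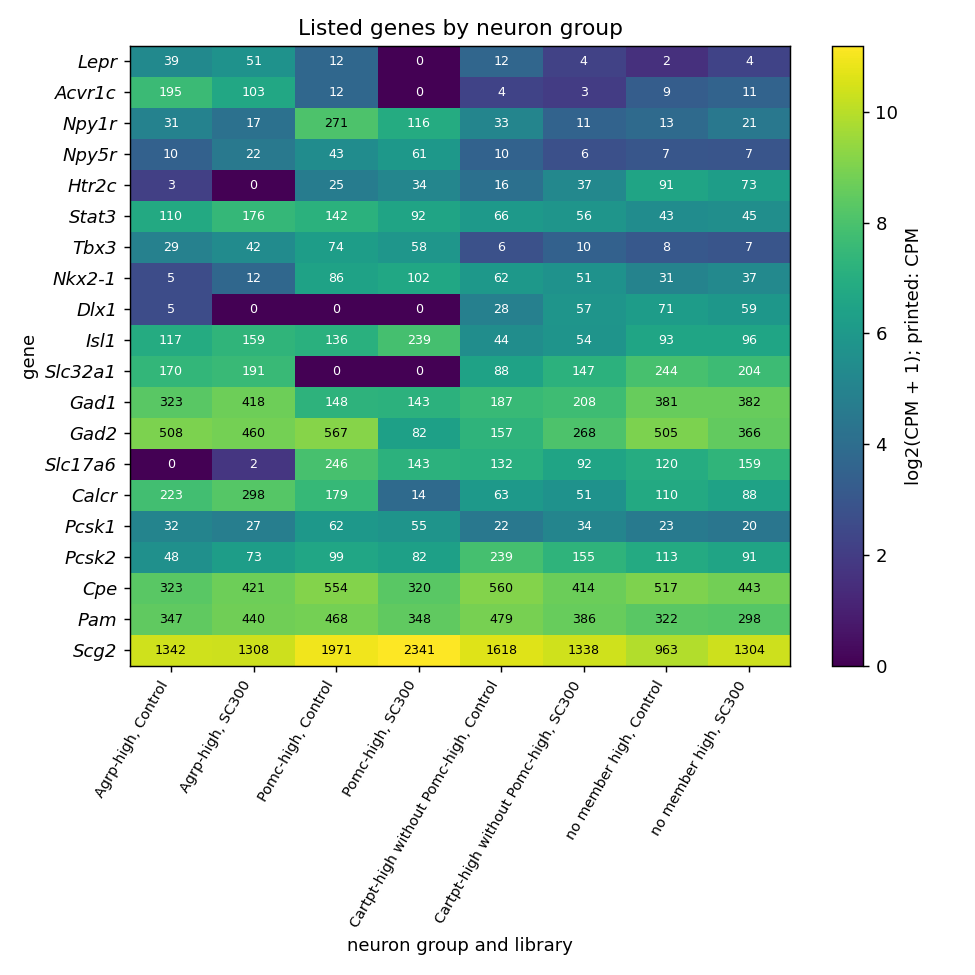
CPM of 20 of the listed genes, picked after their values were seen, in Agrp-high, Pomc-high and Cartpt-high neurons and in neurons with no member high, by library, coloured by log2(CPM + 1). Slc32a1 is 0 in Pomc-high neurons and 170 and 191 in Agrp-high neurons, whereas Slc17a6 is 246 and 143 against 0 and 2.44. Slc17a6 was not called in Pomc-high neurons against neurons with no member high.

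SC300 was compared with Control to see whether neonatal EB went with a different level of these peptides. Summed over neurons, Agrp stood at 603 CPM in Control and 452 in SC300 (7180 and 5381 UMIs), a log2 ratio of -0.42 (-0.47 to -0.37). Npy stood at 98.0 and 64.7 CPM, a log2 ratio of -0.60 (-0.73 to -0.47). Between the libraries, 6.99% of 10914 genes were over 1.5-fold lower and 2.68% over 1.5-fold higher in neurons, and of the members only Npy passed the limit downward and only Cartpt upward. Npy was near the limit and missed it under 6 of 13 alternatives, which ranged from -0.84 to -0.40. Over all kept cells, where 3.75% of 14201 genes were lower and 2.77% higher by this limit, the log2 ratios were -0.41 for Agrp, -0.59 for Npy, -1.11 for Pomc and 0.49 for Cartpt, so that Npy, at the limit, and Pomc were among the lower genes.

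The size of the Agrp ratio depended on single cells. Without the SC300 neuron that held 1885 UMIs the log2 ratio was -1.03, without the top cell of each library it was -0.83, and without the 3 top cells of each it was -0.96. The number of Agrp-high neurons was close in both libraries, with a log2 ratio of shares of -0.10 (-1.16 to 0.96). Within the high cells Agrp stood at 12084 and 13034 CPM, a log2 ratio of 0.11 (0.06 to 0.16), which turned to -0.23 (-0.29 to -0.17) without the top cell of each library.

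Agrp-high neurons included cells with many mitochondrial UMIs. Over 20% mitochondrial UMIs were found in 19.5% of all Control and 20.5% of all SC300 neurons. Among Agrp-high neurons they were found in 3 of 18 Control cells, with 39 to 319 Agrp UMIs, and in 6 of 16 SC300 cells, with 16 to 115. Among the others the median was 367 (159 to 974) in 15 Control cells and 412.5 (117 to 1885) in 10 SC300 cells. A further 3 Control and 4 SC300 cells were high for Agrp but had only 2 or 3 of the neuronal genes. Of 5 neuronal genes that passed the filter on low values, Syt1 and Rbfox3 were called lower in Agrp-high neurons and 0 were called higher. The part of this in the counts of Agrp-high neurons was not tested. With a limit of 3 genes the counts were 19 and 20 neurons, and with 5 genes they were 7 and 3.

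Summed over neurons, Pomc had no stable direction. The sums were 4225 and 3325 UMIs (355 and 279 CPM), a log2 ratio of -0.35 (-0.41 to -0.28). Of the Control UMIs, 93.1% came from 3 cells, and without the 3 top cells of each library the log2 ratio was 2.42. The log2 ratio of the share of high neurons was 1.07 (-0.83 to 3.26), so a difference was not detectable with 4 and 8 cells. Within these cells Pomc stood at 24378 and 10484 CPM, a log2 ratio of -1.22 (-1.29 to -1.15). Without the top cell of each library it was -1.11. With a limit of 3 neuronal genes the counts were 6 and 9 neurons, and a Control cell with 1210 Pomc UMIs entered.

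Summed over neurons, Cartpt was higher in the SC300 library. Within Cartpt-high neurons its CPM was lower, at 4402 (Control) and 3776 (SC300), for a log2 ratio of -0.22 (-0.27 to -0.18). By plain counts Cartpt averaged 174 UMIs per high neuron in Control and 201 in SC300, with medians of 69 and 58.5. The SC300 mean takes in 2 cells that held 3100 and 2441 of 11664 Cartpt UMIs. High neurons were also deeper in SC300 (median 43891 against 34198 UMIs). Over all neurons Cartpt stood at 568 CPM in Control and 996 in SC300 (6754 and 11857 UMIs), a log2 ratio of 0.81 (0.77 to 0.85). The share of high neurons had a log2 ratio of 0.68 (0.07 to 1.31). Neurons also high for Oxt, Avp, Pmch or Hcrt, which are only some of the listed genes, held much of the SC300 Cartpt. By the full list, 35 Control and 48 SC300 Cartpt-high neurons were high for another gene, as given above. The 2 SC300 neurons with the most Cartpt, 3100 and 2441 UMIs, also held 23477 and 15190 UMIs of Pmch, the gene of melanin-concentrating hormone, which is made in the lateral hypothalamus, and no Control neuron was Pmch-high. Neurons also high for Oxt, Avp, Pmch or Hcrt were 4 of 38 Cartpt-high cells in Control and 13 of 58 in SC300, and held 17.0% and 55.1% of the Cartpt UMIs of those cells. Without all such neurons the log2 ratio of the level was 0.04, and that of the share was 0.47 (-0.20 to 1.16), from 34 of 360 and 45 of 343 neurons. With cells thinned to 2000 UMIs and the limit lowered to 3 UMIs, the share of high neurons had a log2 ratio of -0.09. Which neurons entered each library and how much Cartpt each held cannot be told apart.

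**Figure D4:**
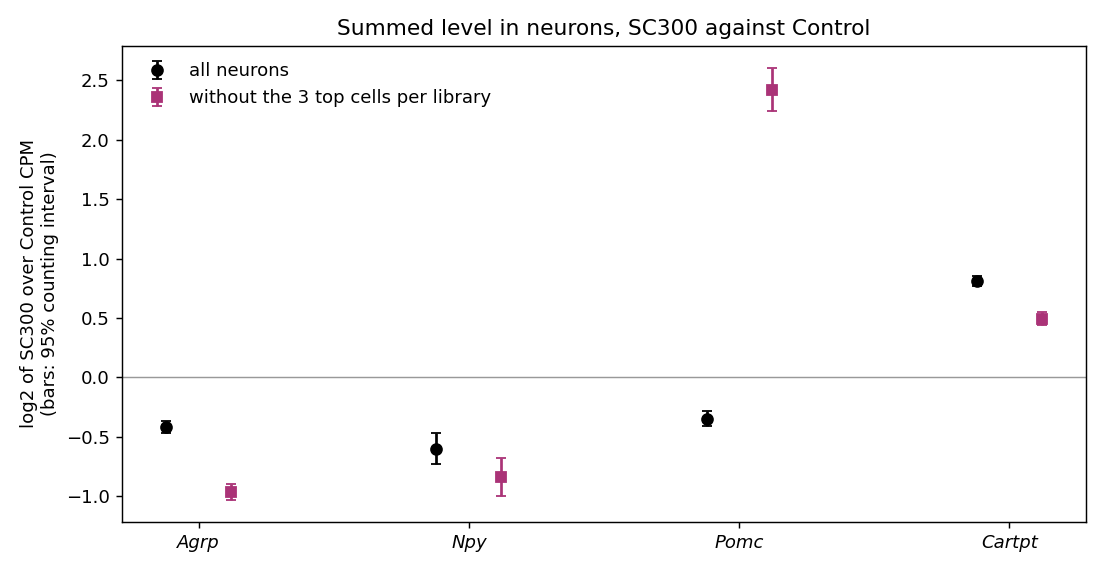
Log2 ratio of SC300 over Control CPM in neurons for each gene, over all neurons (circles) and without the 3 cells with the most UMIs of the gene in each library (squares), with 95% counting intervals. Agrp moves from -0.42 to -0.96, Pomc from -0.35 to 2.42 and Cartpt from 0.81 to 0.50.

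In Agrp-high neurons the listed genes were compared between the libraries among genes with at least 50 UMIs, of which 6.43% of 2955 were over 1.5-fold lower and 6.43% over 1.5-fold higher. Acvr1c was lower in SC300 (195 and 103 CPM), a log2 ratio of -0.93 (-1.47 to -0.41), and Stat3 was higher (110 and 176 CPM), at 0.67 (0.17 to 1.18). Pcsk2, a peptide processing gene, was higher (47.6 and 73.4 CPM), at 0.62, with an interval that takes in 0 (-0.17 to 1.42). Sst, the gene of somatostatin, had a log2 ratio of -3.06 (-4.31 to -2.02) and Tac1, a tachykinin gene, -1.10 (-1.57 to -0.65). Sst came from few cells, with 96 UMIs in 3 Control and 8 in 2 SC300 cells. So did most Tac1, which was high in 4 Control cells, with 59, 48, 35 and 16 of 167 UMIs. In SC300 it was high in 2 cells, with 26 and 12 of 54 UMIs. Npy in all Agrp-high neurons stood at 1721 and 1394 CPM, a log2 ratio of -0.30 (-0.46 to -0.16).

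Pomc was also high outside neurons. Tanycytes are cells that line the floor of the third ventricle beside the arcuate nucleus. Tanycyte-like cells (318 and 195) held 2130 and 340 Pomc UMIs, or 607 CPM (581 to 633) in Control and 120 (108 to 133) in SC300. The log2 ratio was -2.34 (-2.51 to -2.17), and without the 3 top cells of each library it was -2.10. In this class 7.29% of 8243 genes were over 1.5-fold lower and 4.42% over 1.5-fold higher.

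Most of the Control Pomc of this class lay in cells with many UMIs. By the high call, whose limit was higher in Control, 19 Control and 6 SC300 tanycyte-like cells were Pomc-high. At least 10 Pomc UMIs were found in 41 Control tanycyte-like cells, with up to 367 UMIs, and in 7 SC300 cells, with up to 36, which held 78.9% and 36.5% of the Pomc UMIs of the class. They held 0 and 2 Cartpt UMIs in all, and Snap25 stood at 5.68 and 4.49 CPM, against 1022 and 971 CPM in neurons. Frzb, a tanycyte marker, stood at 716 and 508 CPM in them, against 45.1 and 35.8 CPM in tanycyte-like cells without Pomc. The other listed tanycyte markers were less uniform. Crym differed less, at 2546 and 3155 CPM against 1863 and 2535. Col25a1 and Scn7a, on few UMIs, were higher in both libraries. Rax, also on few UMIs, was higher in Control only (6 UMIs against 4). In SC300 it had no UMI against 7.36 CPM, but 3 UMIs would be 13.5 CPM there, so this 0 says little. The cells with at least 10 Pomc UMIs were also deeper, with a median of 14718 and 14378 UMIs against 7985 and 9420. How many tanycyte-like cells of each kind were captured and how much Pomc each held cannot be told apart.

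By summed Pomc level, vascular and ependymal cells lay between neurons and the lowest classes. Neurons outside the Pomc-high set stood below the vascular and ependymal cells, at 22.8 and 21.4 CPM. Endothelial cell-like cells stood at 103 and 74.8 CPM of Pomc, mural cell-like at 82.1 and 62.1, and ependymal cell-like at 92.9 and 79.5. Microglia-like cells stood at 9.21 and 6.003 CPM and mature oligodendrocyte-like cells at 8.06 and 6.43, with intervals that do not reach those of the vascular and ependymal classes. Pituitary tissue also makes Pomc, and its hormone genes Cga, Tshb, Gh1 and Prl had 0 to 5 UMIs per library. None lay in Pomc-high cells, here counted over all classes, with tanycyte-like cells among them. Lhb, with 553 and 400 UMIs in all, had 10 and 9 in Pomc-high cells of any class, whereas all neurons together held 46 and 5. Tanycyte-like cells with at least 10 Pomc UMIs held 30 and 18 Lhb UMIs. Tbx19 is a pituitary factor that was also among the genes most like Cartpt. It had 94 and 116 UMIs in all and 1 and 4 in Pomc-high cells of any class.

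In the glial, ependymal and vascular classes plotted, the other members stood at no more than 12.0 CPM. Agrp and Cartpt were higher in the unnamed clusters, with Agrp at 66.5 and 99.7 CPM and Cartpt at 329 and 32.7 CPM. Both were also higher in cells with 2 or 3 neuronal genes, with Agrp at 35.0 and 109 CPM and Cartpt at 194 and 20.6 CPM. For Npy these values were 21.8 and 4.90 CPM in the unnamed clusters and 12.3 and 16.4 CPM with 2 or 3 neuronal genes. The unnamed clusters held 49 Control and 56 SC300 neurons, so they are not a class outside neurons. Of their 588 Control Cartpt UMIs, 301 lay in 1 cell with 3 neuronal genes. Npy stood at 11.7 CPM (9.64 to 14.1) and 12.0 CPM (9.97 to 14.3) in astrocyte-like cells, against 1.02 and 0 CPM in mature oligodendrocyte-like cells, where 3 UMIs would be 0.384 and 0.284 CPM. Agrp stood at 11.6 and 11.1 CPM in oligodendrocyte precursor-like cells, against 2.43 and 2.46 CPM. Cartpt stayed between 1.61 and 7.64 CPM in the glial and vascular classes plotted.

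**Figure D5:**
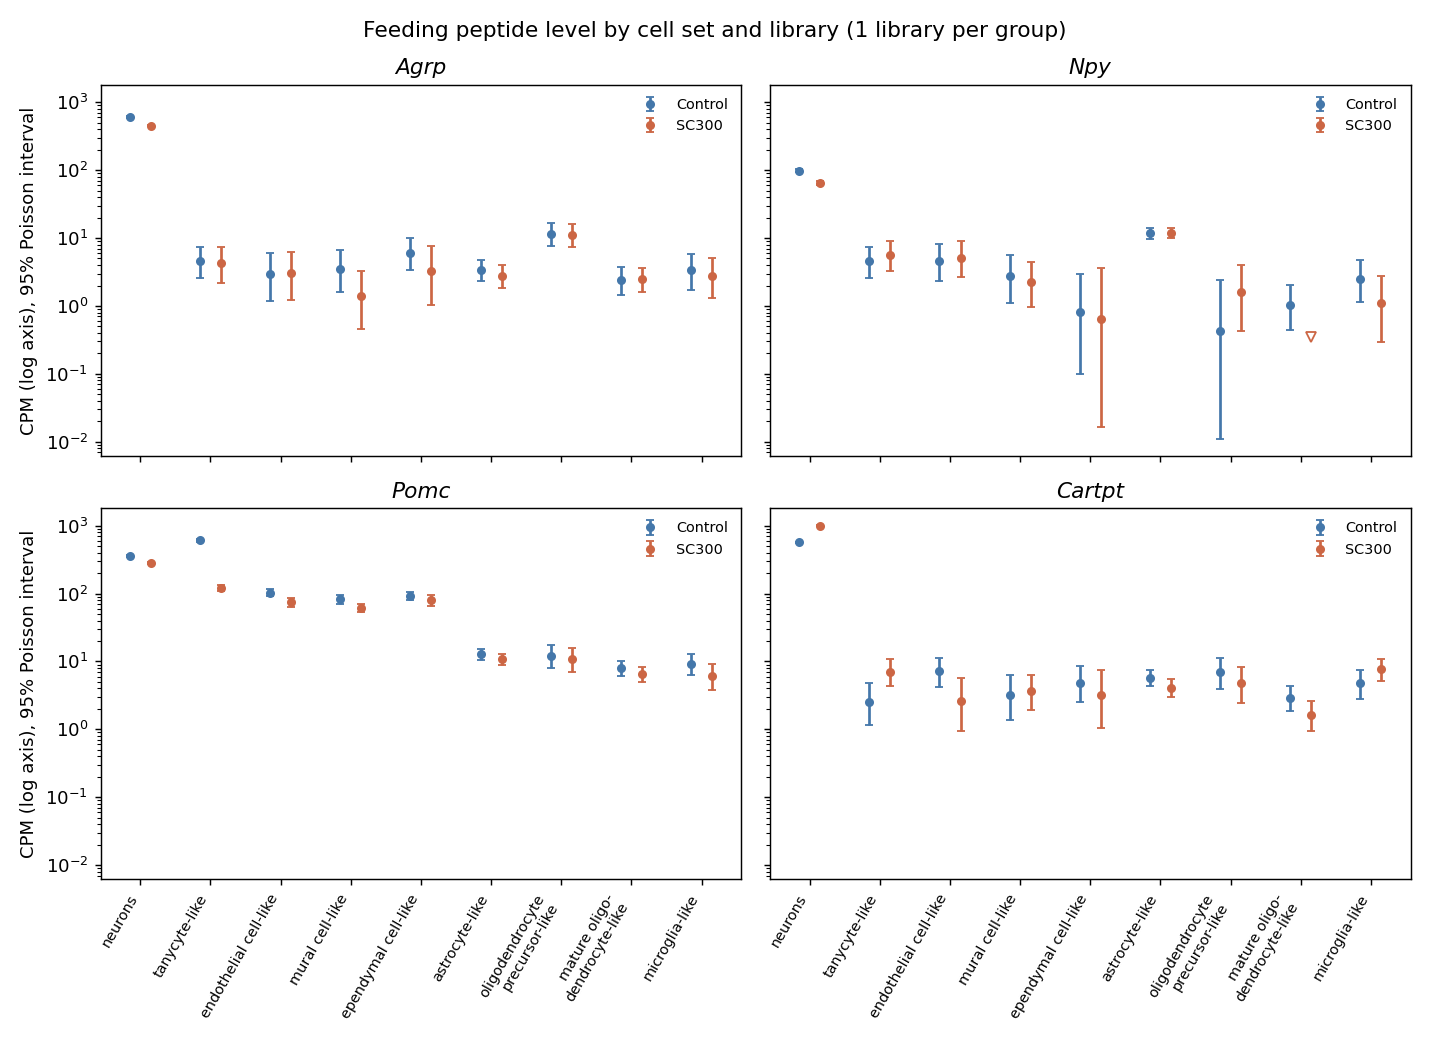
CPM of each gene in neurons and 8 other classes by library on a log axis, with 95% Poisson intervals, where an open triangle is the upper limit for a count of 0. Pomc in tanycyte-like cells is 607 CPM in Control and 120 in SC300, whereas Agrp, Npy and Cartpt lie above 60 CPM in neurons and at no more than 12.0 CPM in the other classes plotted.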

How the data were processed

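UMIs per gene and cell were measured in 1 library per group by droplet-based sequencing. The authors aligned reads to the Ensembl rat transcriptome with Cell Ranger (3.0.1 per the file headers) and deposited counts without normalization. An aggregation step is named in the methods, and its effect on the counts is not given in the sources used here. The members and gene lists were chosen with earlier results of these data known.

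Cells with at least 200 genes were kept (51382276 and 56390355 UMIs) and clustered with Seurat 5.3.0 in R 4.3.3, on 1977 variable genes (members and listed peptides, 23 in all, were left out), 30 principal components and a resolution of 0.7. The 23 clusters were named by at least 3 markers, and the names are rebuilt. 2 clusters with a median of 41.3% and 48.9% mitochondrial UMIs stayed unnamed. Scrublet called 70 and 73 doublets, which were kept. Sums, ratios and exact intervals (Poisson, Clopper-Pearson, conditional binomial) were computed with scipy 1.17.1 and scanpy 1.11.5 under Python 3.11.15 (pandas 2.3.3, numpy 2.4.6), and the code was tested on simulated data. A count of 0 was set to 3 UMIs. With 1 library per group no test was run.

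Named genes were the members, the lists for peptide processing, receptors, transcription factors, transmitters and other peptides, 5 like genes per member and 10 leading genes per neuron group (at least 20 UMIs in at least 3 cells of each library). The fold limits were 2 between cell groups and 1.5 between libraries. The filter on low values between neuron groups was not fixed with them. Of 3 filters, all chosen after values had been seen, the main one is the second tried; the third was tried after the second was seen to leave out Lepr. Pcsk1n and Dlx6 were not found by symbol in the files. One listed gene is not reported here.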

Additional observations from a re-analysis of the deposited data

Results flagged for a closer look

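Differences in direction between cell sets were found for 2 genes. In each case both counting intervals excluded 0, and the difference itself was not tested. The cell sets were not separate, since 49 Control and 56 SC300 neurons lay in the unnamed clusters. Some cells with 2 or 3 neuronal genes lay there as well. Among these were an SC300 cell with 123 Agrp UMIs and a Control cell with 301 Cartpt UMIs. Agrp had a log2 ratio of SC300 over Control of -0.42 in neurons, against 1.64 in cells with 2 or 3 neuronal genes (162 and 673 UMIs) and 0.58 in the unnamed clusters (119 and 244 UMIs). Cartpt had a log2 ratio of 0.81 in neurons, against -0.59 in cells with 0 or 1 neuronal gene (185 and 135 UMIs), -3.24 in cells with 2 or 3 neuronal genes (900 and 127 UMIs) and -3.33 in the unnamed clusters (588 and 80 UMIs). Without the 3 cells with the most UMIs in each library, Agrp was -0.68 in cells with 2 or 3 neuronal genes and 0.13 in the unnamed clusters, and Cartpt was -0.60, -2.11 and -2.37 in the same order of cell sets.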

How the results depend on the processing

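No paired analysis was possible because each group is 1 library and no result comes from a test. Of 148 values under alternatives, 102 stayed within the main counting interval, 39 left it with the same sign and 7 left it with the other sign. In all 8 had the other sign, the further one being the Agrp share of high neurons with at least 3 neuronal genes, at 0.036. Where no construction is named, the cause was not tested. The log2 ratios over neurons are for Agrp, Npy, Pomc and Cartpt, and only those that moved are given. With at least 3 neuronal genes Agrp was -0.32, Pomc -0.81 and Cartpt 0.59, and with at least 5 Agrp was -0.23, Npy -0.40, Pomc 0.19 and Cartpt 1.44. With at most 20% mitochondrial UMIs Pomc was -0.58 and Cartpt 0.86, without doublets Cartpt was 0.75, and with median-of-ratios scaling Agrp was -0.36 and Cartpt 0.87. With background subtracted, which takes in tanycyte-like cells, Pomc was -0.11, and with every cell weighted alike Pomc was 0.17 and Cartpt 0.35. After thinning Agrp was -0.11, Pomc 0.35 and Cartpt 0.19. Without the 3 top cells Agrp was -0.96, Npy -0.84, Pomc 2.42 and Cartpt 0.50. Some alternatives were chosen after seeing the data, and in these, without the top cell of each library Agrp was -0.83, Pomc 0.059 and Cartpt 0.61, without the top SC300 cell alone Agrp was -1.03, within neuron-like clusters Agrp was -0.48, and without Oxt-, Avp-, Pmch- or Hcrt-high neurons Cartpt was 0.042. Within high neurons, without the top cell of each library, Agrp was -0.23, Pomc -1.11 and Cartpt -0.44, also chosen after seeing the data, as were those for tanycyte-like cells. The next alternatives were planned. For the share of high neurons, the Cartpt ratio was -0.085 after thinning with a limit of 3 UMIs (28 and 25 cells). At most 20% mitochondrial UMIs gave 100% and 90.0% of Agrp-high neurons also Npy-high, and 100% of Control Pomc-high neurons also Cartpt-high, as did 20 UMIs and 50 times background (3 of 3). Background from microglia-like, mature oligodendrocyte-like and endothelial cell-like cells was 2.76 and 2.60 CPM for Agrp, 2.03 and 0.966 for Npy, 24.8 and 15.9 for Pomc and 4.14 for Control Cartpt, and from cells with 0 neuronal genes it was 57.8 for Control Pomc. Tanycyte-like Pomc had a log2 ratio of -2.10 without the 3 top cells and -1.95 with cells weighted alike.

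The filter on low values changed the list calls. With at least 20 UMIs over both neuron sets, 1.81% of 10444 genes were higher in Agrp-high neurons, with Lepr, Glp1r, Tbx3 and Foxo1 added. In Pomc-high neurons 7.75% of 10427 were higher. Added there were Pcsk1, Mc4r, Npy1r, Npy5r, Lepr, Glp1r, Prlr, Tbx3, Nhlh2, Slc18a3, Tbx19 (pituitary list), Frzb (tanycyte list) and the member Agrp. The call of Agrp was made by the rule for a count of 0 and is not a measured rise. Pomc-high neurons held 0 Agrp UMIs in Control, set to 3 UMIs or 18.5 CPM, and 4 in SC300. How many other higher calls in Pomc-high neurons rest on such a 0 was not counted. With the third filter, on UMIs found or expected, these shares were 1.71% of 7482, with Lepr, Tbx3 and Foxo1 added, and 1.60% of 5065, with Pcsk1, Npy1r, Npy5r, Prlr, Tbx3, Nhlh2 and Slc18a3 added. Single rats cannot be resolved, and 4 and 8 Pomc-high cells limit every Pomc value in neurons.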
